A study of Rattus norvegicus with 12 samples.

Results

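Solute carriers are the largest group of membrane transporters. The genes described here are those that cultured rat hippocampal cells expressed at a measurable level, either untreated or with their excitatory synapses blocked. The members are all genes on the array whose rat symbol is Slc followed by a family number, except 10 genes left out by name (the vesicular glutamate and GABA transporters Slc17a6, Slc17a7, Slc17a8 and Slc32a1, and Slc1a2, Slc1a3, Slc4a4, Slc2a1, Slc2a3 and Slc7a11). Among these, members were selected on the scanner software's detection flags: a gene needed a probe that the software called well above background in every one of the 3 arrays of some group. Of 312 such genes on the array, 264 met this rule, among 21250 genes and unnamed targets measured in all, and 235 of them lay well above background on all 12 arrays. The rule is by symbol, so it also takes in Slc7a6os, which is named for lying on the opposite strand of a transporter gene and is not itself a carrier.

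The cultures came from the hippocampi of Wistar rat embryos at embryonic day 18 and had been kept for 14 to 15 days. Blocked cultures received 50 µM GYKI-52466, an antagonist of AMPA-type glutamate receptors, together with 10 µM MK-801, which blocks NMDA-type receptors. They were collected after 9 h or 26 h beside untreated cultures of the same age, with 3 independent cultures in each of the 4 groups. Every culture thus held whatever glia and other cells the dissection brought with it, and in such samples fewer cells of a type and less RNA per cell cannot be told apart.

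Solute carriers move small molecules across the plasma membrane and the membranes of organelles, either downhill or coupled to gradients of sodium, chloride, protons or potassium that pumps such as the sodium-potassium ATPase maintain. In neurons they clear glutamate, GABA and glycine from the synaptic cleft, fill synaptic vesicles, extrude calcium after firing, and set intracellular chloride and pH. Astrocytes and neurons also pass lactate, glutamine and other amino acids to each other through carriers, and the mitochondrial SLC25 family exchanges nucleotides, cofactors and metabolites across the inner membrane.

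A level below is the log2 processed signal of a gene's brightest kept probe minus the 75th percentile of its array, so that 0 is the 75th percentile. An effect is the blocked level minus the untreated level on that log2 scale, given with its standard error (SE). A gene was called where the Benjamini-Hochberg adjusted p of limma was under 0.05 over all 21250 targets. The members' levels within a group correlated at 0.976 to 0.992 between arrays, and the median within-group SD was 0.24 log2 for members and 0.21 for all targets. Per the file headers, scan day 1 took in the untreated arrays of 9 h and the blocked arrays of 26 h, and scan day 2 took in the blocked arrays of 9 h and the untreated arrays of 26 h. The averaged effect of both times is balanced over the scan days, while the effect at 1 time compares arrays of different days and cannot be told apart from the day of scanning. All 9 of 9 neuronal markers were kept, with a mean level of 0.90 to 1.36 over arrays, as were 8 of 9 astrocyte markers. Of these, the astrocyte marker Aldoc was saturated on all 3 arrays of every group, and the neuronal marker Stmn2 on 2 or 3. The astrocyte marker Gjb6 was well above background on only 2 of 3 arrays in the untreated 9 h and blocked 26 h groups. In the averaged comparison 1 of 11 oligodendrocyte lineage genes (Cspg4) and 1 of 4 kept endothelial genes (Kdr) fell, where 2.22% of all targets did. In it 2 of 4 kept excitatory neuron genes (Neurod2, Neurod6) rose, where 2.23% of all targets did. None was called of the 9 neuronal, 5 inhibitory neuron, 8 kept astrocyte or 10 microglia genes. The 9 kept meningeal and fibroblast genes, 3 kept choroid plexus genes and 1 kept pericyte gene also had no averaged call. With the replicate number as a block, 5 of the 11 oligodendrocyte lineage genes were lower, where 6.99% of all targets were lower. That fit also called 2 of 9 neuronal genes and 2 of 8 kept astrocyte genes lower. It called 1 of 9 kept meningeal and fibroblast genes and 1 of 4 kept endothelial genes lower. Higher with the block were 2 of 4 kept excitatory neuron genes and 1 of 4 kept endothelial genes, where 6.18% of all targets were. The mean level of the 11 oligodendrocyte lineage genes ran from -1.56 to -0.75 on untreated 9 h arrays, -1.67 to -1.10 on blocked 9 h arrays, -1.26 to -0.36 on untreated 26 h arrays and -1.60 to -0.70 on blocked 26 h arrays. The part of these cells in the results below was not tested.

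Start-site sequences of the members were searched for the cyclic AMP response element (CRE, TGACGTCA) and for the AP-1 motif (TGANTCA), since both are bound by factors that neuronal activity is known to regulate. RefSeq promoters of build GRCr8, from 250 bases before to 50 bases after the start site, were matched to 208 members, some of which have more than 1 start site. On either strand, 6 of 216 member promoters (2.78%) held the CRE, against 1.83% of all 33469 promoters. The windows of these 6 members are shown because they are the only members with the full palindrome, read in the direction of the gene with the CRE in capitals and up to 25 bases on each side:
Slc18a2, chr1:268399944-268400001, plus strand: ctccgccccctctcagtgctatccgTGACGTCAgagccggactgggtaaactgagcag
Slc25a25, chr3:36116707-36116764, minus strand: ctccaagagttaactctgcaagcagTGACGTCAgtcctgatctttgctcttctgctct
Slc25a33, chr5:165503025-165503082, minus strand: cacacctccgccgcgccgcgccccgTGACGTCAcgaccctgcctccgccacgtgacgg
Slc38a6, chr6:97723365-97723422, plus strand: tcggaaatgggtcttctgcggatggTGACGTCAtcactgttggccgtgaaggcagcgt
Slc45a1, chr5:166412222-166412279, minus strand: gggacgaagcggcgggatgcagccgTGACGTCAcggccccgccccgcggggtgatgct
Slc46a1, chr10:63859369-63859426, plus strand: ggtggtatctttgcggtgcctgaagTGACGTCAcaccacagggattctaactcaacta
None of these 6 genes was called for the averaged effect. Their averaged effects were -0.0029 for the vesicular monoamine transporter Slc18a2, -0.17 for the mitochondrial ATP-magnesium and phosphate carrier Slc25a25, -0.15 for the pyrimidine nucleotide carrier Slc25a33, 0.18 for Slc38a6, 0.15 for the sugar carrier Slc45a1 and 0.17 for the proton-coupled folate carrier Slc46a1.

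The AP-1 letters, which the CRE does not contain, stood in 17 of 216 member promoters (7.87%) and in 7.33% of all promoters. Members called at 9 h had them in 8 of 50 promoters (16%) and members called at 26 h in 4 of 40 (10.0%). No promoter of the 6 members with an entry among those called for the averaged effect held either motif, which says only that these letters are not in these windows. The next 5 windows belong to members whose values at the separate times are described further on. They were chosen after those values were seen, with the AP-1 letters in capitals:
Slc19a2, chr13:79134868-79134919, plus strand: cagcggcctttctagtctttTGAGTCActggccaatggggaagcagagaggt
Slc38a1, chr7:129681595-129681651, minus strand: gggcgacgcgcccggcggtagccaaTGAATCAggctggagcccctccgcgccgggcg
Slc3a1, chr6:15394895-15394951, minus strand: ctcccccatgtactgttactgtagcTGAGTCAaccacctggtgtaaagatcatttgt
Slc4a10, chr3:67073699-67073755, plus strand: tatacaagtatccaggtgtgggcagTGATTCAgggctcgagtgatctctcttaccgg
Slc6a17, chr2:197843918-197843974, minus strand: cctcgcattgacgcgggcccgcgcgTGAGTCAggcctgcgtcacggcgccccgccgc

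Averaged over both times, blockade moved few solute carriers past the threshold. Of 264 members, 4 rose and 4 fell, where 4.45% of all targets were called (2.23% higher and 2.22% lower), so the members' share of 3.03% was near that of the array. The 4 that rose were the calcium exchanger Slc24a2, the bicarbonate carrier Slc4a8, the glutamate transporter Slc1a6 and the mitochondrial carrier Slc25a51. The 4 that fell were the glucose transporter Slc2a2, the vesicular monoamine transporter Slc18a1, the mitochondrial carrier Slc25a32 and the anion exchanger Slc26a4. Between the 5th and the 95th percentile, members' averaged effects ran from -0.42 to 0.34, with a median of -0.02 that was also the median of all targets, and 246 of 264 were under 0.5 in size. Under other scalings of the arrays the split of calls differed: 7 higher and 3 lower with quantile normalization, 6 and 3 in the deposited matrix, and 2 and 3 with arrays centred on the median. With the replicate number as a block, 35 members were called, 16 higher and 19 lower, where 13.2% of all targets were called (6.18% higher and 6.99% lower).

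Slc24a2, the potassium-dependent sodium-calcium exchanger typical of neurons, showed the largest called rise. Its levels were -1.48, -1.66 and -1.84 in untreated and -0.35, -0.16 and -0.58 in blocked cultures at 9 h, and -0.44, -0.70 and -0.99 in untreated and 0.04, -0.36 and -0.51 in blocked cultures at 26 h. At 9 h the groups were far apart, and at 26 h 1 untreated array lay within the blocked ones. The averaged effect was 0.87 (SE 0.13, 1.82-fold higher, adjusted p = 0.00528), and a second, dimmer probe of the gene gave 0.33.

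Slc4a8, a sodium-driven chloride and bicarbonate exchanger found at presynaptic endings, rose by about the same amount at each time. Untreated levels were -4.68, -4.31 and -4.42 at 9 h and -4.11, -4.54 and -4.57 at 26 h, and blocked levels were -3.53, -3.80 and -3.93 at 9 h and -3.21, -3.90 and -3.96 at 26 h. No blocked array overlapped the untreated arrays of its time. The effect was 0.71 at 9 h (adjusted p = 0.0393), 0.71 at 26 h (adjusted p = 0.0479) and 0.71 averaged (SE 0.15, 1.64-fold higher, adjusted p = 0.026). The averaged call was lost with arrays centred on the median, with quantile normalization, with normexp background correction and without some of the arrays, always with a positive effect.

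Slc1a6, a glutamate transporter best known from cerebellar Purkinje cells, had untreated levels of -2.26, -2.01 and -2.21 at 9 h and -2.30, -2.41 and -2.57 at 26 h. Its blocked levels were -1.93, -1.93 and -1.88 at 9 h and -1.75, -1.26 and -1.47 at 26 h, above every untreated array of the same time. The averaged effect was 0.59 (SE 0.09, 1.5-fold higher, adjusted p = 0.00633). At 26 h the effect was 0.93 (adjusted p = 0.00244) and at 9 h 0.25 (adjusted p = 0.232).

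Slc25a51, which carries NAD+ into mitochondria, also had blocked arrays above all untreated arrays at each time. Levels were 1.04, 0.88 and 1.00 in untreated and 1.30, 1.20 and 1.20 in blocked cultures at 9 h, then 1.05, 0.68 and 0.77 in untreated and 1.46, 1.38 and 1.33 in blocked cultures at 26 h. The averaged effect was 0.41 (SE 0.08, 1.33-fold higher, adjusted p = 0.0147). Blocked 26 h arrays exceeded untreated 9 h arrays by 0.42 on scan day 1. Blocked 9 h arrays exceeded untreated 26 h arrays by 0.40 on day 2. Each of these differences within a day also holds the difference in culture time.

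Slc2a2, the low-affinity glucose transporter GLUT2 best known from liver and pancreatic islets, had the largest fall of the members. Untreated levels were -4.81, -4.48 and -4.95 at 9 h and -5.19, -4.72 and -6.12 at 26 h, against blocked levels of -6.46, -6.36 and -5.90 at 9 h and -6.96, -6.54 and -7.16 at 26 h. The groups did not overlap at either time, although 1 untreated 26 h array lay well below the other two. The effect was -1.49 at 9 h (adjusted p = 0.00974), -1.54 at 26 h (adjusted p = 0.0113) and -1.51 averaged (SE 0.23, 2.86-fold lower, adjusted p = 0.00462).

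Slc18a1, a vesicular monoamine transporter of endocrine cells, had levels of -3.21, -2.70 and -2.89 in untreated and -3.84, -3.40 and -4.01 in blocked cultures at 9 h. At 26 h the levels were -3.64, -3.25 and -3.48 in untreated and -3.88, -3.53 and -4.02 in blocked cultures, so that the groups overlapped there and were apart at 9 h. The averaged effect was -0.58 (SE 0.14, 1.5-fold lower, adjusted p = 0.0456). This call was lost in 16 of 29 alternative settings, each with a negative effect, and the blocked fit gave an adjusted p of 0.00195.

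Slc25a32, the mitochondrial carrier of folate and FAD, fell in the 26 h arrays. Levels at 26 h were -3.37, -3.22 and -3.44 in untreated and -4.37, -4.46 and -4.55 in blocked cultures, whereas at 9 h they were -3.76, -3.46 and -3.80 in untreated and -3.76, -3.63 and -3.64 in blocked cultures. The groups lay far apart at 26 h and overlapped at 9 h. The effect was -1.12 at 26 h (adjusted p = 0.000502), -0.0067 at 9 h and -0.56 averaged (SE 0.08, 1.48-fold lower, adjusted p = 0.00327).

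Slc26a4, the chloride and iodide exchanger pendrin, was dim throughout. Untreated levels were -6.71, -6.45 and -6.36 at 9 h and -6.88, -6.86 and -6.84 at 26 h, and blocked levels were -6.63, -7.07 and -6.87 at 9 h and -7.43, -7.60 and -7.36 at 26 h, where 2 of 3 blocked arrays were well above background. The blocked arrays lay below all untreated ones at 26 h and overlapped them at 9 h. The averaged effect was -0.48 (SE 0.09, 1.39-fold lower, adjusted p = 0.0184). On scan day 1 the blocked 26 h arrays differed from the untreated 9 h arrays by -0.96. On day 2 the blocked 9 h arrays differed from the untreated 26 h arrays by 0.0061. The arms of a scan day differ in culture time as well as treatment, so neither value is the effect of blockade alone.

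**Figure D1:**
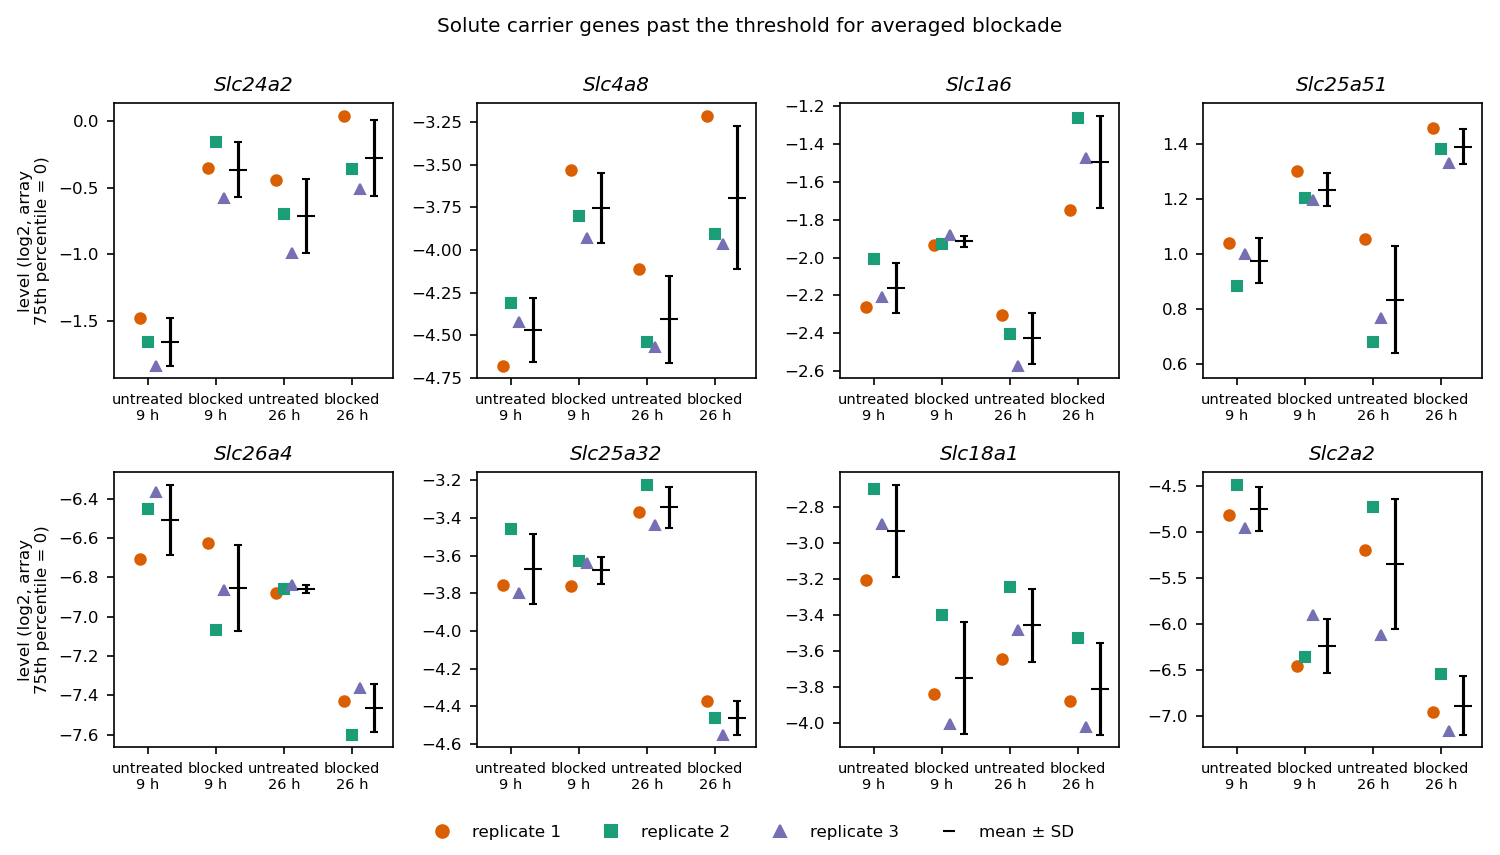
Level (log2, with the 75th percentile of the array at 0) of the 8 members called for the averaged effect, in each of the 4 groups, with 1 symbol per array coloured by replicate number and the mean with its SD beside them. Slc4a8, Slc1a6 and Slc25a51 have all blocked arrays above the untreated arrays at both times, Slc2a2 has all of them below, and Slc25a32 falls at 26 h alone.

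All 8 calls were also made with the replicate number as a block and with the slide as a fixed or a random block. All 8 were lost without replicate 2 of every group, when 20 members had an unadjusted limma p under 0.05 and none passed the adjusted threshold. Without replicate 3, 3 members were called, of which 2 were among these 8. Blocked arrays lay above all untreated arrays at both times in 6 members (1.52% of all targets did so), and below them in 2 members (1.51% of all targets). The 6 were Slc4a8, Slc1a6 and Slc25a51, together with the monocarboxylate carrier family member Slc16a13, the zinc carrier Slc39a3 and the lysosomal carrier Slc49a4, and the 2 were Slc2a2 and the nucleoside carrier Slc29a2. Of the 27 members called only with the replicate block, the choline carrier family member Slc44a4 (0.65, blocked adjusted p = 0.00438) and the organic cation transporter Slc22a3 (-0.69, blocked adjusted p = 0.0271) had the largest averaged effects in each direction.

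Among the SLC1 members, which leave out Slc1a2 and Slc1a3, only Slc1a6 was called for the averaged effect. Slc1a1, the neuronal glutamate and cysteine transporter, had levels of -0.37, -0.18 and -0.42 in untreated and -0.25, -0.09 and -0.17 in blocked cultures at 9 h, and -0.01, -0.06 and -0.16 in untreated and -0.20, -0.54 and -0.51 in blocked cultures at 26 h. The groups overlapped at 9 h and lay apart at 26 h, and the averaged effect of -0.09 (SE 0.08, adjusted p = 0.681) did not pass. The neutral amino acid exchangers Slc1a4 (-0.35, SE 0.12) and Slc1a5 (-0.07, SE 0.32) did not pass either. So 1 of 5 SLC1 members rose and none fell, with a class median of -0.09.

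No member of the SLC6 family, whose carriers use sodium and chloride to take up GABA, glycine, proline and other amino acids, was called for the averaged effect (0 of 15, with 1 higher and 3 lower at an unadjusted limma p under 0.05). The astrocyte-enriched GABA transporter Slc6a11 had an averaged effect of 0.04 (SE 0.19), and the glycine transporter Slc6a9 of -0.19 (SE 0.08). The vesicular neutral amino acid transporter Slc6a17 had -0.25 (SE 0.09, adjusted p = 0.182) and passed with the replicate block (adjusted p = 0.0271). The brain proline transporter Slc6a7 had the largest averaged effect of the family, 0.39 (SE 0.20, adjusted p = 0.393). In the vesicular and lysosomal SLC17 and SLC18 families, 1 of 5 members fell (Slc18a1), and the lysosomal sialic acid carrier Slc17a5 had 0.24, called with the block (adjusted p = 0.0378).

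Amino acid carriers of the plasma membrane and lysosome (35 members) had no averaged call, with 1 higher and 3 lower at an unadjusted p under 0.05, and 20 of 35 effects were above 0. The glutamine carriers Slc38a1 and Slc38a2, which supply neurons with a glutamate precursor, had averaged effects of 0.12 (SE 0.08) and 0.15 (SE 0.09). Slc7a5 and Slc3a2, the light and heavy chains of the large neutral amino acid transporter, had -0.29 (SE 0.15, adjusted p = 0.403) and -0.30 (SE 0.13, adjusted p = 0.29), and Slc3a2 passed with the replicate block (adjusted p = 0.0163). Levels of Slc3a2 at 26 h were 2.14, 2.45 and 2.73 in untreated and 1.68, 1.79 and 2.08 in blocked cultures, which did not overlap. Slc38a4 had the highest averaged effect of this class, 0.49 (SE 0.23, adjusted p = 0.313).

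Carriers that set intracellular chloride, and with it the response of a neuron to GABA, did not pass the averaged test (0 of 8 SLC12 members called, 0 higher and 1 lower at an unadjusted p under 0.05). The chloride extruder Slc12a5 (KCC2) had levels of 2.51, 2.51 and 2.44 in untreated and 2.69, 2.44 and 2.39 in blocked cultures at 9 h, and 2.91, 2.51 and 2.47 in untreated and 2.92, 2.88 and 2.80 in blocked cultures at 26 h. Blocked and untreated arrays overlapped at both times, and the averaged effect was 0.13 (SE 0.09, adjusted p = 0.577). The chloride importer Slc12a2 (NKCC1) had -0.21 (SE 0.09, adjusted p = 0.255). Slc12a4 had the largest effect of the family, -0.35, with an adjusted p of 0.707 that fell to 0.00894 with the replicate block.

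Of 18 carriers of bicarbonate, protons and anions, 1 rose (Slc4a8) and 1 fell (Slc26a4). The neuronal sodium bicarbonate transporter Slc4a10, a close relative of Slc4a8, had an averaged effect of 0.06 (SE 0.06, adjusted p = 0.714). Among the 7 sodium-calcium exchangers 1 rose (Slc24a2), while the plasma membrane exchangers Slc8a1, Slc8a2 and Slc8a3 had averaged effects of -0.13 (SE 0.09), 0.09 (SE 0.13) and -0.11 (SE 0.19).

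Mitochondrial carriers formed the largest class, with 37 members, of which 1 rose (Slc25a51) and 1 fell (Slc25a32), at a class median of -0.08 and with 27 of 37 effects below 0. The ADP and ATP exchanger Slc25a4 had an averaged effect of -0.17 (SE 0.12), but its probe was saturated on all untreated 9 h and blocked 26 h arrays. Of 18 sugar carriers 1 fell (Slc2a2), and the choline transporter Slc5a7, counted in that class by its family, had 0.29 (SE 0.15, adjusted p = 0.373). The monocarboxylate carrier Slc16a1 had -0.13 (SE 0.10), and none of the 19 members of its class was called.

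Metal carriers had the lowest class median, -0.14, and no averaged call among 26 members (3 higher and 4 lower at an unadjusted p under 0.05). Slc30a3, which loads zinc into glutamatergic vesicles, had 0.24 (SE 0.13, adjusted p = 0.452), and the plasma membrane zinc exporter Slc30a1 had 0.12 (SE 0.07). No member was called among 29 carriers of nucleosides and nucleotide sugars, where Slc35a5 had the largest effect (0.46), nor among 14 organic ion carriers, 15 lipid and choline carriers, 10 vitamin and heme carriers, where Slc52a3 had -0.54, and 3 others.

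**Figure D2:**
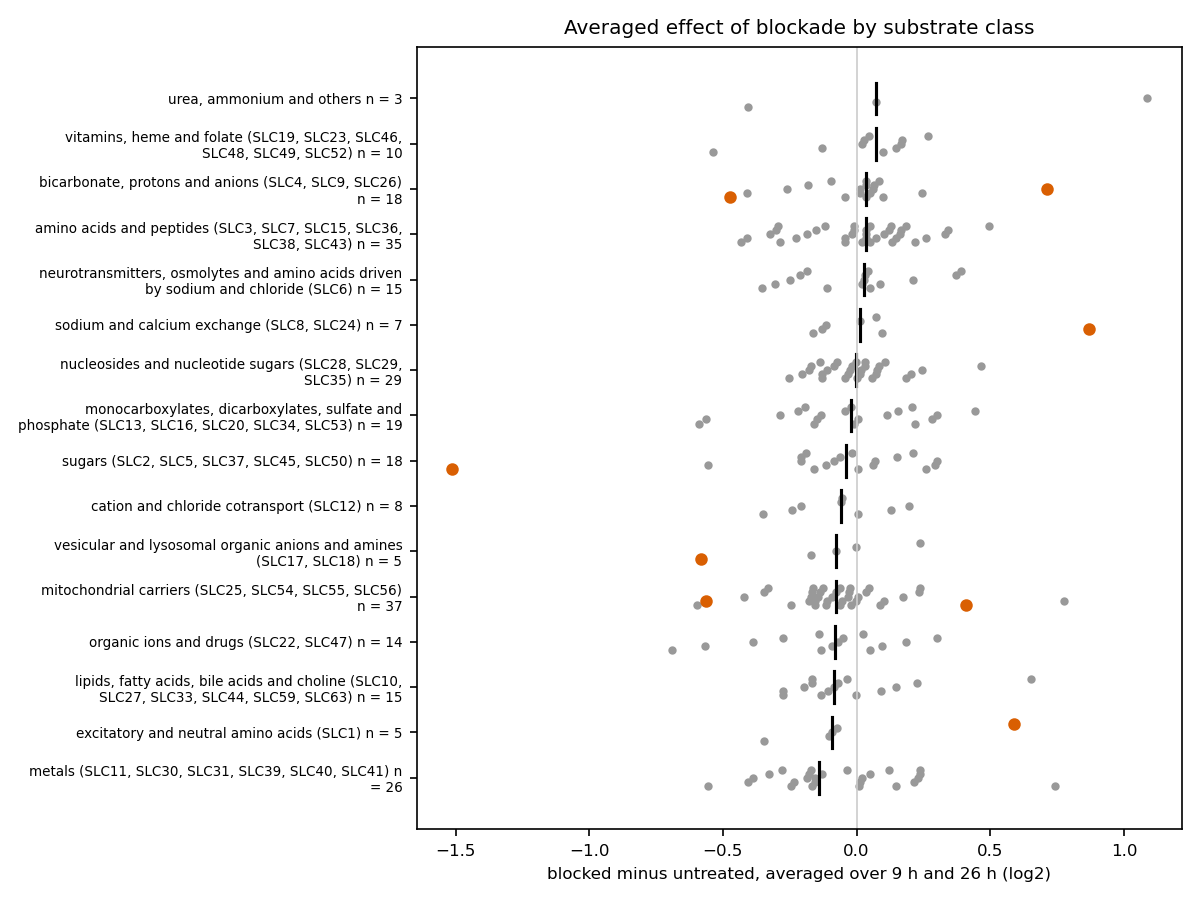
Averaged effect (blocked minus untreated, log2, mean of 9 h and 26 h) of each of the 264 members by substrate class, with members called by limma in orange, the others in grey and the class median as a black line. Class medians lie between -0.14 (metals) and 0.07, and the called members are spread over 6 classes.

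At the separate times more members were called, and most of those called at both times had opposite directions. At 9 h, 34 members were higher and 29 lower (23.9% of members, against 21.1% of all targets, 11.4% higher and 9.63% lower). At 26 h, 15 were higher and 31 lower (17.4% of members, against 16.3% of all targets, 6.88% higher and 9.46% lower). Under other scalings the split at 9 h was 24 higher and 28 lower with arrays centred on the median and 35 and 20 in the deposited matrix. At 26 h it was 8 and 26 in the deposited matrix and 7 and 26 with no filter on dim probes. Of the 25 members called at both times, which were 39.7% of the 9 h calls and 54.3% of the 26 h calls, 17 were higher at 9 h and lower at 26 h (4.56% of all targets were), 6 were the reverse (2.79% of all targets), and 2 (Slc2a2 and Slc4a8) had the same direction at both times (1.17% of all targets). The direct test of the difference between the times called 72 members (27.3%, against 28.6% of all targets). All 6 arrays of scan day 2 lay above all 6 arrays of day 1 in 19 members (6.77% of all targets did so) and below them in 7 members (4.11% of all targets). With the replicate block, 101 members were called at 9 h (35.9% of all targets were) and 84 at 26 h (31.7% of all targets). No member was called at either time without replicate 2, when 53 at 9 h and 47 at 26 h had an unadjusted limma p under 0.05, and without replicate 3 the counts were 20 and 4. Without replicate 1 the 9 h count was 36. Single arrays also moved the counts: the 9 h count was 33 without replicate 2 of the untreated group, and 37 and 31 without replicates 1 and 2 of the blocked group. The 26 h count was 22 and 27 without replicates 2 and 3 of the untreated group, and 27 without replicate 1 or replicate 2 of the blocked group.

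**Figure D3:**
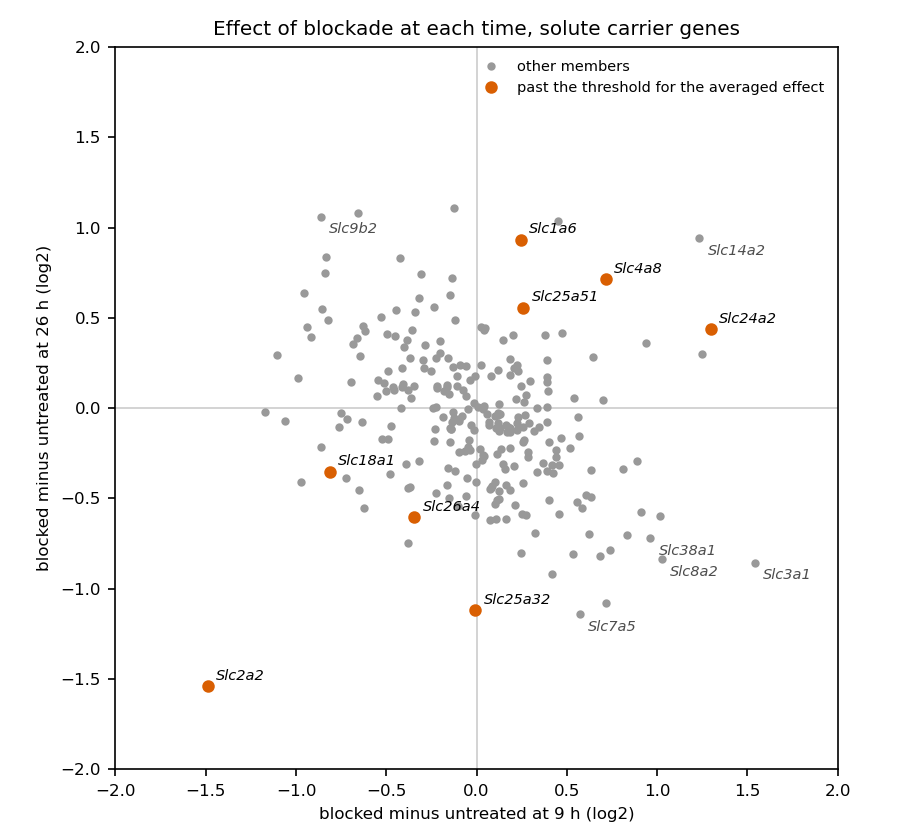
Effect of blockade at 9 h (horizontal axis, log2) against the effect at 26 h (vertical axis, log2) for the 264 members, 1 point per gene, with the 8 members called for the averaged effect in orange. Of the members, 168 have opposite signs at the 2 times, and Slc2a2, Slc4a8 and Slc24a2 stand apart where the signs agree. The share of all targets with opposite signs is not given here, so the 168 cannot be read as particular to the members.

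Several carriers of the synapse showed this crossed pattern. Slc38a1 had levels of -2.64, -2.68 and -2.67 in untreated and -1.55, -1.67 and -1.89 in blocked cultures at 9 h, then -2.10, -1.98 and -2.23 in untreated and -2.74, -2.84 and -2.90 in blocked cultures at 26 h. The 6 arrays of scan day 2 were thus the high ones, whether blocked or not. Its effect was 0.96 at 9 h (SE 0.11, adjusted p = 0.000719) and -0.72 at 26 h (SE 0.11, adjusted p = 0.00312). On scan day 1 the blocked 26 h arrays differed from the untreated 9 h arrays by -0.16. On day 2 the blocked 9 h arrays differed from the untreated 26 h arrays by 0.40. Both differences within a day also hold the difference in culture time.

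Slc8a2, a sodium-calcium exchanger of neurons, had untreated levels of -4.79, -4.49 and -5.29 and blocked levels of -3.88, -3.77 and -3.85 at 9 h. At 26 h the untreated levels were -3.65, -3.91 and -3.72 and the blocked levels -4.35, -4.74 and -4.71. The effect was 1.03 at 9 h (SE 0.19, adjusted p = 0.00461) and -0.84 at 26 h (SE 0.19, adjusted p = 0.0153), again with all day 2 arrays above all day 1 arrays.

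Slc6a17 went from 2.26, 2.17 and 2.08 in untreated to 2.76, 2.58 and 2.41 in blocked cultures at 9 h, and from 2.65, 2.74 and 2.44 in untreated to 1.87, 1.61 and 1.60 in blocked cultures at 26 h. The groups of a time did not overlap, with an effect of 0.42 at 9 h (adjusted p = 0.0424) and -0.92 at 26 h (adjusted p = 0.0023). Slc4a10 likewise had 0.61 at 9 h (adjusted p = 0.00148) and -0.48 at 26 h (adjusted p = 0.00562). A second, dimmer probe of Slc4a10 gave 0.06 at 9 h and -0.21 at 26 h.

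**Figure D4:**
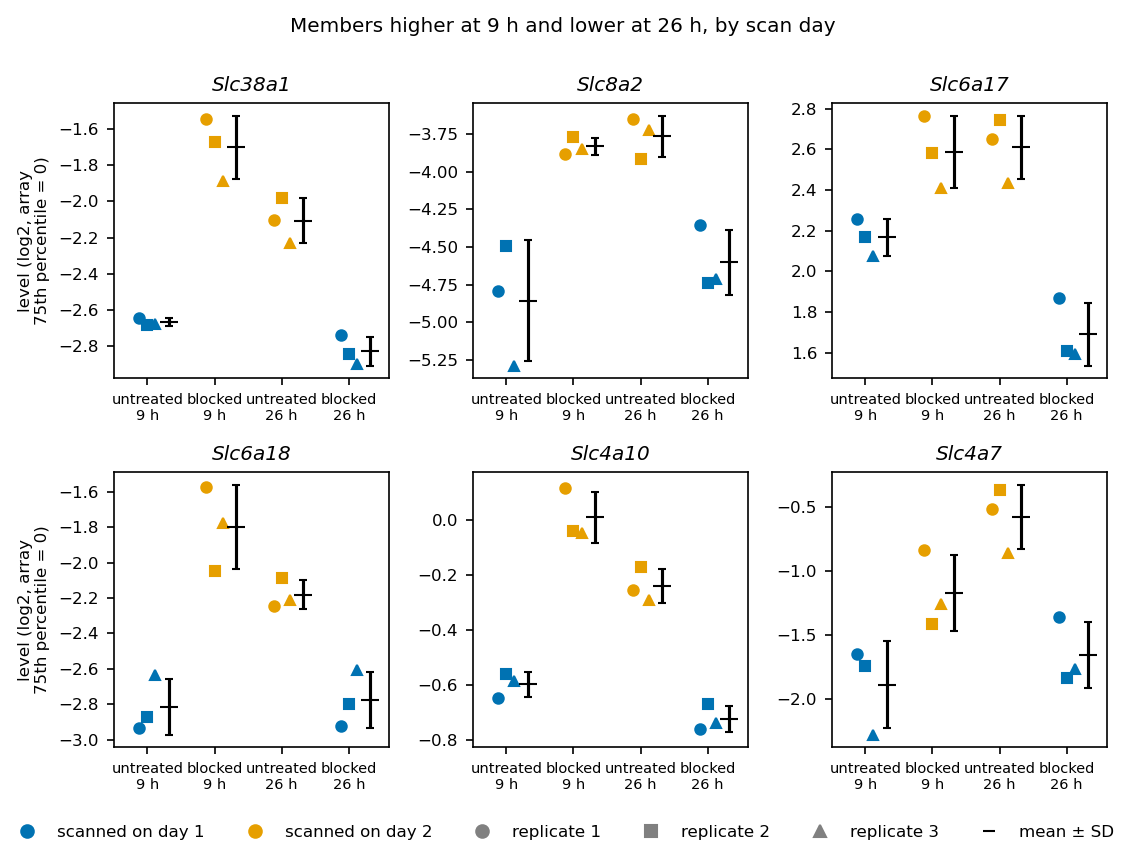
Level (log2, 75th percentile of the array at 0) of 6 members called at both times with opposite signs, by group, with arrays of scan day 1 in blue, those of day 2 in orange and the mean with its SD beside them. In each panel the orange arrays of blocked 9 h and untreated 26 h cultures are higher than the blue arrays of the same time.

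Among called members whose groups did not overlap, the other large rises at 9 h were in Slc3a1, a subunit of the cystine and dibasic amino acid transporter (1.54, SE 0.29, adjusted p = 0.0051), Slc6a18, a neutral amino acid transporter best known from kidney (1.02, SE 0.14, adjusted p = 0.00146), and Slc44a4 (0.94, SE 0.30, adjusted p = 0.0469). Slc3a1 levels at 9 h were -1.36, -2.18 and -2.22 in untreated and -0.15, -0.23 and -0.76 in blocked cultures, with no overlap, and its effect at 26 h was -0.86 (adjusted p = 0.0694). By the same choice, the largest falls at 9 h after Slc2a2 were in the zinc carrier Slc39a5 (-1.10), Slc22a14 (-1.06), Slc4a11 (-0.99), the myo-inositol carrier Slc5a3 (-0.96) and the mitochondrial ATP-magnesium carrier Slc25a24 (-0.94), with adjusted p-values from 0.00291 to 0.0487. The 9 h calls of Slc22a14, Slc44a4 and Slc5a3 were lost in 18, 14 and 10 of 26 alternative settings, always with the same sign. A second, much dimmer probe of Slc25a24 gave 0.46 at 9 h. Slc5a3, which accumulates an osmolyte, had levels of 1.99, 1.83 and 1.81 in untreated and 1.13, 0.52 and 1.11 in blocked cultures at 9 h. It had an effect of 0.64 at 26 h that did not pass (adjusted p = 0.142).

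At 26 h the largest rises among called members whose groups did not overlap were in the amino acid carrier Slc38a4 (1.11, SE 0.32), the sodium-proton exchanger Slc9b2 (1.06, SE 0.25), Slc1a6, the nucleoside carrier Slc28a2 (0.84, SE 0.24), Slc35f2 (0.83, SE 0.23) and Slc5a7 (0.72, SE 0.21). Slc5a7, the high-affinity choline transporter of cholinergic neurons, had levels of -6.08, -5.53 and -5.89 in untreated and -5.22, -5.24 and -4.87 in blocked cultures at 26 h (adjusted p = 0.0422). The 26 h calls of Slc5a7, Slc28a2, Slc38a4 and Slc35f2 were lost in 17, 16, 13 and 10 of 26 alternative settings, and that of Slc9b2 in 8, always with a positive effect. A second probe of Slc28a2 gave 0.30 at 26 h and 0.13 at 9 h, where its brighter probe gave -0.84. A second probe of Slc9b2 gave 0.11 at 26 h and 0.15 at 9 h, where its brighter probe gave -0.86. The largest such falls after Slc2a2 were in Slc7a5 (-1.14, SE 0.21, adjusted p = 0.00712), Slc25a32, the bicarbonate carrier Slc4a7 (-1.08, SE 0.22), Slc6a17 and Slc8a2. Slc7a5 levels at 26 h were -2.13, -1.31 and -1.32 in untreated and -2.82, -2.68 and -2.69 in blocked cultures, which did not overlap, while its effect at 9 h was 0.57 (adjusted p = 0.0837). The glycine transporter Slc6a9 was also lower at 26 h (-0.69, adjusted p = 0.00448).

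By class, 4 of 15 SLC6 members were higher at 9 h, where 11.4% of all targets were, and 4 were lower at 26 h, where 9.46% of all targets were. Of 15 lipid and choline carriers 4 were higher at 9 h and 5 lower at 26 h, and of 7 sodium-calcium exchangers 3 were higher at 9 h and 3 lower at 26 h. Mitochondrial carriers had 2 of 37 higher and 7 lower at 9 h, then 3 higher and 2 lower at 26 h. Carriers of bicarbonate, protons and anions had 5 of 18 higher and 4 lower at 9 h, then 3 higher and 4 lower at 26 h. Members with an AP-1 motif among the windows above were called as follows: Slc19a2, a thiamine carrier, at 0.91 (9 h) and -0.58 (26 h), and Slc38a1, Slc3a1, Slc4a10 and Slc6a17 with the values given. Other members with the AP-1 letters did not show this crossed pattern. Slc16a3, Slc16a8, Slc1a7, Slc26a1, Slc38a7 and Slc6a5, among others, were called at neither time. Slc25a11 (0.44) and Slc49a4 (0.39) were called higher at 9 h and were not called at 26 h. Of the members with a CRE, Slc25a33 had -0.86 at 9 h (adjusted p = 0.000815) and 0.55 at 26 h (adjusted p = 0.00703), and Slc45a1 had 0.47 at 9 h (adjusted p = 0.0222). A second, dimmer probe of Slc25a33 gave 0.12 at 9 h and -0.41 at 26 h, with signs opposite to those of the brighter probe.

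Time in culture, averaged over treatments and balanced over the scan days, was followed by more falls than rises. From 9 h to 26 h, 7 members rose and 23 fell (11.4% of members, against 12.7% of all targets, of which 4.93% rose and 7.78% fell). The split was 12 and 23 with arrays centred on the median, and 14 and 24 with quantile normalization. The largest rise was in the lysosomal amino acid carrier Slc38a7 (0.71, adjusted p = 0.00803), with further rises in Slc24a2 (0.52, adjusted p = 0.0303), Slc46a3 (0.51) and Slc17a5 (0.32). The calls of Slc24a2, Slc46a3 and Slc17a5 were lost in 13, 12 and 16 of 27 alternative settings, and that of Slc38a7 in 2, always with a positive effect. Slc38a7 levels lay between -1.65 and -1.07 on the 9 h arrays and between -0.77 and 0.08 on the 26 h arrays, with no overlap between the times.

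The mitochondrial iron carrier Slc25a37 fell by 1.15 on the log2 scale (SE 0.12, adjusted p = 0.000445). Its levels were -4.65, -4.94 and -4.66 in untreated and -5.10, -5.35 and -4.84 in blocked cultures at 9 h, and -6.40, -6.05 and -5.96 in untreated and -6.01, -6.20 and -5.82 in blocked cultures at 26 h, with no overlap between the times. The zinc carriers Slc30a2 (-1.23, adjusted p = 0.0198) and Slc39a5 (-0.97, adjusted p = 0.00151) and Slc4a11 (-1.01, adjusted p = 0.00513) also fell. Slc25a21 had the largest fall (-1.31, adjusted p = 0.0126), but it met the detection rule through the untreated 9 h arrays alone and so had to be higher there. With the replicate block 31 members rose and 45 fell, where 26.8% of all targets were called (11.8% higher and 15% lower), and without replicates 1, 2 and 3 in turn the calls numbered 16, 2 and 3. They numbered 19 and 18 without blocked 9 h replicate 1 or replicate 3, and 17 without blocked 26 h replicate 2.

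Some members followed the replicate number more than the treatment. Replicate 3 lay above both other replicates in all 4 groups for 76 members (28.8%, against 21.8% of all targets) and below both for 25 members (9.47%, against 8.73%). The largest excess was in the GABA and taurine carrier Slc6a13, whose levels for replicates 1, 2 and 3 were -5.92, -3.84 and -2.96 (untreated 9 h), -7.21, -4.29 and -3.12 (blocked 9 h), -5.20, -3.34 and -1.54 (untreated 26 h) and -6.00, -2.83 and -1.47 (blocked 26 h). Replicate 3 was the highest and replicate 1 the lowest in each group, and the mean of replicate 3 over that of the other two was 2.55 log2. Slc38a5, an amino acid carrier, had an excess of 2.50, the organic anion transporters Slc22a8 and Slc22a6 of 2.40 and 1.28, and Slc16a10 and Slc16a4 of 1.38 and 1.36.

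Markers of meninges and fibroblasts moved the same way: 9 of 10 were kept, 7 of them highest in replicate 3 of every group, with a median excess of 2.21 log2, and their mean level ran from -2.37 to -0.05 on untreated 9 h arrays and from -3.08 to -0.0037 on blocked 9 h arrays. On the 26 h arrays the mean level of these markers ran from -2.40 to 0.28 in untreated and from -2.75 to 0.19 in blocked cultures. The 3 kept choroid plexus markers had a median excess of 1.69. The part of such cells in the values of these 6 carriers was not tested. The averaged effect of blockade on Slc6a13 was -0.35 with an SE of 1.01, and none of the 6 was called.

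**Figure D5:**
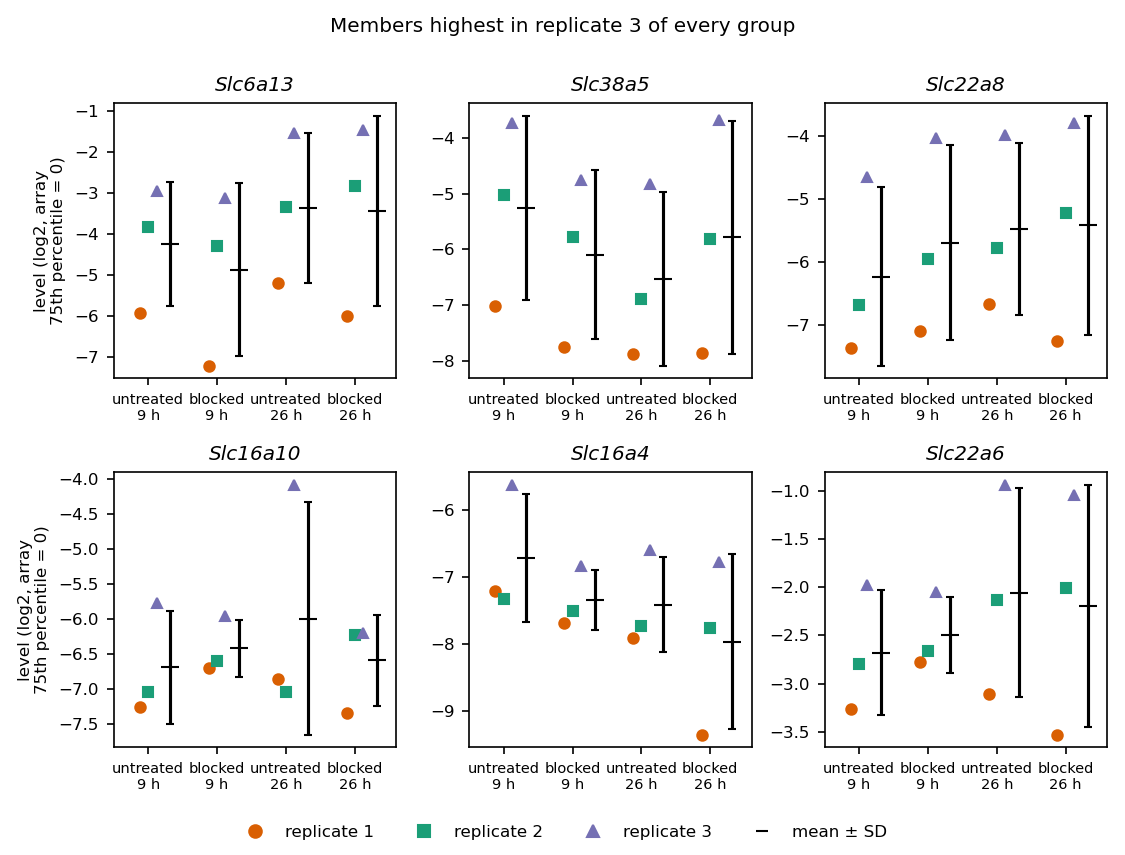
Level (log2, 75th percentile of the array at 0) of the 6 members with the largest excess of replicate 3, by group, with 1 symbol per array coloured by replicate number and the mean with its SD beside them. The purple triangle of replicate 3 is the highest of the 3 arrays in every group of every panel.

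At the edge of detection, 8 members met the rule through a single group (Slc14a2, Slc16a4, Slc25a15, Slc25a21, Slc25a47, Slc36a3, Slc4a5 and Slc52a3), and apart from the change of Slc25a21 with time none of them was called in these comparisons. The urea transporter Slc14a2 met the rule through the blocked 9 h arrays alone and so had to be higher there. Its averaged effect was 1.09 (SE 0.38, adjusted p = 0.16). Outside the rule lay 48 genes, of which 10 were well above background on 2 of 3 arrays of their best group, with mean levels of -8.71 to -7.57. They include the dopamine and serotonin transporters Slc6a3 and Slc6a4.

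Proteins that work with these carriers changed little in the averaged comparison: 0 of 29 listed genes were called by limma, with 3 higher and 2 lower at an unadjusted p under 0.05, and 4 were called with the replicate block. The list holds subunits of the sodium-potassium ATPase, the WNK kinases that control SLC12 carriers, the lactate carrier chaperones Bsg and Emb, and others. At 9 h 3 of the 29 were higher and 0 lower, among them Bsg (0.47) and the mitochondrial calcium uptake regulator Micu3 (0.62). At 26 h 0 were higher and 3 lower, among them Wnk2 (-0.66). Of the 51 members with at least 2 kept probes, 35 had averaged effects of 1 sign on all probes and 16 had both signs.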

How the data were processed

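Per the labels, 12 RNA samples (200 ng each) were labelled with Cy3 and run on single-colour Agilent rat arrays, 1 sample an array, with 3 independent cultures in a group. Agilent Feature Extraction 10.5.1.1 wrote the deposited intensity values, per the file headers; its processed signal is background-subtracted and not normalized between arrays. The deposited matrix of log2 values has a slope of 1.000 against log2 processed signal, so each column is that signal minus a constant (column medians 7.57 to 7.75); how the constants were set is not given in the sources used here.

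Between 77.6% and 86.8% of 42877 non-control spots were well above background; the number of arrays limits the precision. Outlier-flagged values (3751) were dropped, spots of a probe averaged, and 24034 of 30367 probes kept. The reference table named 18004 probes through RefSeq transcripts. The file headers name build rn4, and promoter coordinates are of GRCr8. One mean per group was fitted with limma 3.58.1 (R 4.3.3), two-sided, after a check on simulated data.

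After removal of group means, untreated and blocked arrays that share a time and a replicate number correlated over genes at 0.177 to 0.657, above the preset 0.1, so the replicate number was also fitted as a block. Across times the lowest such value was -0.0413, for replicate 2 of the untreated groups, so that limit was not met for culture time. Named are members called for the averaged effect, the largest changes at each time, with culture time and in replicate 3, the largest effect of each class, those at the edge of detection and a fixed list of neuronal carriers. The alternatives tried were other scalings, background corrections, filters, probe rules, blocks and left-out arrays. Some items are not reported here. Members and lists were chosen with earlier results of these data known.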

Additional observations from a re-analysis of the deposited data

Results flagged for a closer look

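For 29 members named in the text, the effect at 26 h differed from the effect at 9 h by the test of the difference in limma (adjusted p between 0.000166 and 0.0435). The 2 effects come from opposite orders of the scan days, so this difference cannot be told apart from the day of scanning. Over all 264 members the same test called 72 (27.3%), against 28.6% of all targets. Some of the 29 were named for a large effect at 1 time, a choice that favours a large difference, so their number is no result about the members. The effect at 26 h minus that at 9 h was negative, in log2, for Slc3a1 (-2.40), Slc8a2 (-1.86), Slc4a7 (-1.79), Slc7a5 (-1.72), Slc38a1 (-1.68), Slc6a18 (-1.62), Slc19a2 (-1.49), Slc6a17 (-1.33), Slc30a3 (-1.15), Slc25a32 (-1.11), Slc4a10 (-1.09), Slc6a9 (-1.02), Slc46a3 (-0.98), Slc24a2 (-0.86), Slc38a2 (-0.74), Slc45a1 (-0.63), Slc8a1 (-0.59), Slc1a1 (-0.50) and Slc30a1 (-0.45). It was positive for Slc9b2 (1.92), Slc28a2 (1.67), Slc5a3 (1.60), Slc25a33 (1.41), Slc39a5 (1.40), Slc25a24 (1.39), Slc35f2 (1.25), Slc4a11 (1.16), Slc7a6os (1.03) and Slc1a6 (0.69). Of these, Slc1a6 and Slc24a2 had effects above 0 at both times, so that on the brightest probe the size differed but not the sign. Slc25a32 had an effect of -0.0067 at 9 h. Dimmer second probes gave differences of -0.014 for Slc24a2, -0.98 for Slc19a2, -1.18 for Slc6a9, -0.27 for Slc4a10 and 0.17 for Slc28a2. Of opposite sign to the brightest probe were those of Slc25a33 (-0.53), Slc25a24 (-0.78) and Slc9b2 (-0.039). The dimmer probes of Slc8a1 gave -0.21 and 0.16.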

How the results depend on the processing

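The counts of called members were 8 (averaged), 63 (9 h), 46 (26 h) and 30 (culture time). They became 35, 101, 84 and 76 with the replicate block, and 1, 7, 6 and 4 where a change of at least 2-fold was also asked for. With the replicate block 13.2%, 35.9%, 31.7% and 26.8% of all targets were called, against 4.45%, 21.1%, 16.3% and 12.7% without it. For all other settings here the share of all targets is not given, so whether those counts follow the array cannot be told. The averaged count was 28 with the slide as a fixed block, 43 with it as a random block, 45 with array weights and 5 with arrays centred on the median. For culture time the count was 65 with the slide as a fixed block, 76 with it as a random block and 65 with array weights, and at 26 h array weights gave 124. Leaving out 1 replicate number gave 0 to 6, 0 to 36, 0 to 33 and 2 to 16, and leaving out 1 array gave 6 to 11, 31 to 61, 22 to 53 and 17 to 26. With fewer arrays the fits have fewer degrees of freedom; the cause of the other differences was not tested. The slide as a fixed block could not be fitted for 1 time, since no slide holds both groups of a time. Within scan day 2, Slc26a4 in blocked 9 h arrays differed from untreated 26 h arrays by 0.0061, a difference that also holds culture time. Other normalizations, filters and probe rules kept the counts within 1.5-fold. Among single members taken by the naming rule, 2019 values kept their direction where called and their side of the threshold, 244 lost the call and 37 gained it. Within 1 scan day only values of named members were computed, not counts.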
